A study of Mus musculus with 6 samples.

Results

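The genes of kinesin and dynein, the motors that carry cargo along microtubules, were followed in the spinal cord of mice that lack SOX2 in astrocytes. The set held every protein-coding gene of the kinesin (Kif and Kifc), kinesin light chain (Klc), cytoplasmic dynein (Dync1 and Dync2) and dynactin (Dctn) families, with the dynein light chains Dynll1, Dynll2, Dynlt1a and Dynlrb1, as long as its counts summed to at least 30 over the 6 libraries. Members were chosen by name and by this minimum, and 61 of the 35275 genes in the count table qualified. The rule left out 3 protein-coding genes for low counts, of which Kif28 had 23 counts in all, Kif12 had 1 and Kif2b had 0. The member with the fewest counts was Kif18b, with 33. Kif1bp fits the rule by its name, but it encodes a protein that binds kinesins and is not itself a motor.

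Kinesins walk along microtubules, most of them toward the plus end, which in an axon points away from the cell body. Cytoplasmic dynein walks toward the minus end and works together with the dynactin complex. In the spinal cord these motors are best known for axonal transport in neurons, but astrocytes and oligodendrocytes also use them, and a separate group of kinesins builds the mitotic spindle of dividing cells.

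Poly(A) RNA was measured by RNA-seq in whole spinal cord of 3 Sox2 cKO and 3 control (Ctrl) mice on the C57BL/6 strain. The labels give the Sox2 cKO genotype as mGfap-Cre:Sox2fl/fl, in which a mouse Gfap promoter drives Cre recombinase in astrocytes and so removes the floxed Sox2 there. They give the Ctrl genotype as mGfap-Cre:Sox2+/+, whereas the study describes its controls as littermates with the floxed allele. The age is postnatal day 90 in the labels and 80 in the study. The 2 sources also give different minimum values for the integrity of the RNA. The columns are numbered, and the mouse numbers of the study put columns 2, 4 and 6 in Ctrl and columns 1, 3 and 5 in Sox2 cKO. Values of single libraries are given throughout in that order. Group means listed by the study matched this choice for 1999 of 1999 genes and matched no other choice of 3 columns. Libraries held between 21507911 and 28392184 counts. The deleted gene, Sox2, fell from 21.4 ± 7.45 CPM (TMM-scaled counts relative to the library total, SD, n = 3) in Ctrl to 2.95 ± 0.236 CPM in the knockout mice (adjusted p = 0.000956 from edgeR). The RNA came from all cells of the tissue, so fewer cells of a type and less RNA per cell cannot be told apart. Summed markers of astrocytes were 8119 to 10381 CPM in Ctrl and 5957 to 6175 CPM in Sox2 cKO, with 6 of 10 markers lower and none at 0. Of the neuron markers, 1 of 10 was lower and 1 was higher, with sums of 11866 to 12561 CPM in Ctrl and 11517 to 11847 CPM in Sox2 cKO. Of the oligodendrocyte markers, edgeR called 0 of 8 (2 at an unadjusted p-value below 0.05, and 3 by DESeq2), with sums of 31887 to 35671 CPM in Ctrl and 32147 to 34717 CPM in Sox2 cKO. Of 5 oligodendrocyte precursor markers, 4 were lower, with sums of 274 to 318 CPM in Ctrl and 162 to 217 CPM in Sox2 cKO. Of all tested genes, 12.4% were lower and 12.2% were higher. The length correction described below moved the median log2 fold change from -0.40 to -0.29 for astrocyte markers and from 0.09 to 0.08 for neuron markers. It went from -0.11 to -0.23 for oligodendrocyte markers, of which 2 were then called, and from -0.67 to -0.35 for precursor markers. The part of these cell types in the motor gene values was not tested.

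The 300 bases around a gene's start in the RefSeq table of build GRCm38.p6, 250 before the start and 50 after it, were found for 45 of the 61 motor genes. They were searched on both strands for ACAAAG. The study gives the shorter CAAAG and its variants as the canonical SOX2 motif, and these were not searched. These 45 genes had 52 windows, and 11 (21.2%) held the letters, beside 18.7% of the 32851 windows in the table. Counted by gene, 9 of the 45 motor genes (20%) and 21% of all genes held them. Of the 9, Kif3c and Dync2h1 were lower in Sox2 cKO, Dynlrb1 was higher, and the other 6 were not called or not tested. The sequences below show 2 motor genes that were lower and 2 that were higher in Sox2 cKO, 1 of each with a match and 1 without. Each is printed 5′ to 3′ on the strand of the gene, from 250 bases before the start to 25 bases after it, and the capitals mark the match. The match of Kif3c begins 51 bases before the start, and that of Dynlrb1 lies just after the start used here. Dynlrb1 has 2 listed starts, and the same letters lie before the other one, which is further downstream.
Dync1h1 (lower, no match; chr12:110601145-110601419, plus strand): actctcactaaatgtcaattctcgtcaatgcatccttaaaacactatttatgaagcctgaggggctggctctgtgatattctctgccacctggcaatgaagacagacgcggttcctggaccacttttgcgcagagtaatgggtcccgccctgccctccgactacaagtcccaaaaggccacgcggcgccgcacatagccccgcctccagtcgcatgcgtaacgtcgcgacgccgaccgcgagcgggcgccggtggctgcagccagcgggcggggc
Kif3c (lower; chr12:3364882-3365156, plus strand): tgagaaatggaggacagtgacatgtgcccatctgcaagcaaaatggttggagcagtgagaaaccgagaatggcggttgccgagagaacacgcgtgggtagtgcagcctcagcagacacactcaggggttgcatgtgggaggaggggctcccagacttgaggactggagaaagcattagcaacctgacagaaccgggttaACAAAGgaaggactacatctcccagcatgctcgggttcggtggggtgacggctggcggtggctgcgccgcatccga
Dctn3 (higher, no match; chr4:41723139-41723413, minus strand): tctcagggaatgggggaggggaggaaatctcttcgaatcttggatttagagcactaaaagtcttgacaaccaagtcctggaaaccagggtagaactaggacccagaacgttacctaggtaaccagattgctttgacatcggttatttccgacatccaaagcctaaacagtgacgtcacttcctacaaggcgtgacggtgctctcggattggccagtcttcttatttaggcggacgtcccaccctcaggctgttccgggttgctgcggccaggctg
Dynlrb1 (higher; chr2:155236283-155236557, plus strand): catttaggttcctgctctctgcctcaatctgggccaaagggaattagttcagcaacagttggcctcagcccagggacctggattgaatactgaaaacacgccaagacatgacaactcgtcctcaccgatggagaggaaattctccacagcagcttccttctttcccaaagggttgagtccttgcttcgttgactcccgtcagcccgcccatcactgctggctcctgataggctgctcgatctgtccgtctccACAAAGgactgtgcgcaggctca
Both directions of change occurred with and without the letters. A match is a description of these letters in the window and not evidence of a bound site. A window without a match can still hold the shorter CAAAG, as the one printed for Dctn3 does.

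In Sox2 cKO spinal cord the dynein motor subunit Dync1h1 and all 6 tested kinesin-3 genes were lower. In contrast, 4 of the 6 Dctn genes of dynactin and the light chains Dynll1, Dynlrb1 and Klc1 were higher. The other 2 Dctn genes and the light chains Dynll2 and Klc3 were lower. With the length correction described below, only Dctn2 and Dctn3 of the genes named here were still called higher. Dync1h1, Kif13a, Kif13b, Dctn1, Dynll2 and Klc3 were still called lower. Of the 58 motor genes that passed the filter on low counts, 18 (31%) were lower, 10 (17.2%) were higher and 30 were not called at an adjusted p-value of 0.05 by edgeR's quasi-likelihood test. Over all 16137 genes tested, 12.4% were lower and 12.2% were higher. Motor genes were more abundant than most genes, with a median of 68.3 CPM beside 18.9 CPM over all tested genes. In none of the 28 called genes did the libraries of Ctrl and Sox2 cKO overlap in CPM. Counting every tested motor gene without overlap gave 20 lower (34.5%) and 13 higher (22.4%), beside 22.1% and 22.6% of all tested genes. DESeq2 called 17 lower and 10 higher, all of them among the 28, beside 15.0% and 12.7% of all genes. RLE scaling gave 18 lower and 10 higher, as in TMM, whereas upper quartile scaling gave 14 lower and 11 higher (10.2% and 14.3% of all genes). Limma on log2 FPKM gave 13 lower and 11 higher of 49 motor genes, with a pseudocount of 1 (6.2% and 18.1% of all genes) and of 0.1 (6.07% and 17.7%).

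The number of calls depended on single libraries. Without Ctrl library 4, edgeR called 0 motor genes (29 at an unadjusted p-value below 0.05) and 0.159% of all genes, and without Sox2 cKO library 1 it called 0 (30 unadjusted) and 0.0485%. It called 7 without Ctrl library 6 (6.54% of all genes), 11 without Sox2 cKO library 3 (8.31%), 19 without Sox2 cKO library 5 (16.3%) and 30 without Ctrl library 2 (36.9%). DESeq2 called 16 motor genes without Ctrl library 4 (14.5% of all genes), 19 without Sox2 cKO library 1 (17.2%), 20 without Ctrl library 6 (17.4%), 23 without Sox2 cKO library 3 (20.7%), 24 without Sox2 cKO library 5 (23.3%) and 29 without Ctrl library 2 (36.2%). For each of the 28 genes the highest adjusted p over the 6 edgeR fits was between 0.0656 and 0.163, and the sign turned for 0 of them. Each of these 28 calls was therefore lost in edgeR without Ctrl library 4 and without Sox2 cKO library 1, and so were those of the adaptors, tubulins and microtubule-associated proteins.

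The direction of change followed the length of the transcript. Length is the exon length by which the authors divided their FPKM values, and it ran from 742 bases for Dynlt1a to 14342 bases for Dync1h1 with a median of 3714 bases. Of the 29 tested motor genes longer than 3714 bases, 14 (48.3%) were lower and 0 were higher by edgeR, with 0 higher at an unadjusted p-value below 0.05 and 0 by DESeq2. Of the 29 tested motor genes up to that length, 4 (13.8%) were lower and 10 (34.5%) were higher. The 4 short genes that fell were Klc3, Dynll2, Kif3a and Dctn4. The median log2 fold change was -0.34 for the long motor genes and 0.21 for the short ones.

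**Figure D1:**
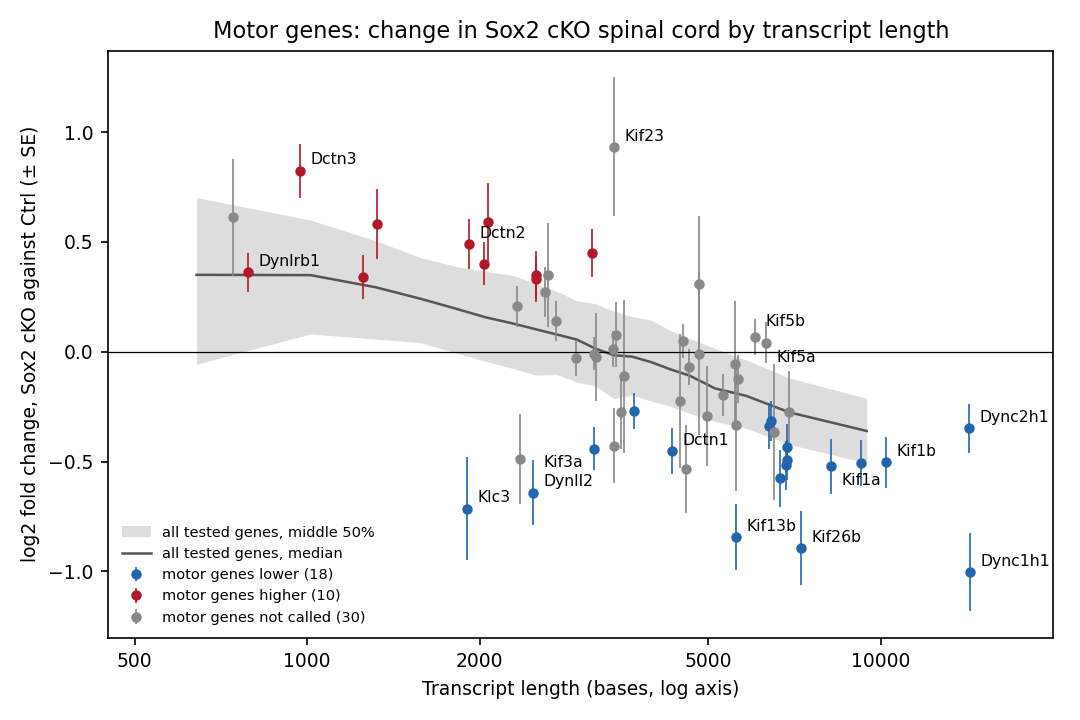
Log2 fold change of each tested motor gene (vertical axis, Sox2 cKO against Ctrl, bars are SE) against transcript length in bases (log axis), coloured by its edgeR call, with the median and the middle 50% of all tested genes in 20 length bins in grey. All called motor genes longer than 3714 bases lie below 0, Kif5a and Kif5b lie above the grey band at their length, and Dynll2 and Klc3 are short genes far below it.

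Genes in general showed the same trend. Of all tested genes longer than 3714 bases, 26.3% were lower and 3.1% were higher, and of those up to that length 4.32% were lower and 17.5% were higher. Their median log2 fold changes were -0.17 and 0.14. Among genes with a mean of at least 5 CPM, 14 of 20 long motor genes (70%) were lower and 0 were higher by edgeR (0 unadjusted, 0 by DESeq2), beside 30.1% and 3.25% of all long genes. In the same range, 3 of 20 short motor genes were lower and 9 (45%) were higher, beside 5.81% and 23.1% of all short genes. With 3 groups of similar size, 13 of the 19 longest tested motor genes (68.4%) were lower, beside 41.3% lower and 1.52% higher among all genes of that range. Of the 20 shortest, 3 were lower and 10 (50%) were higher, beside 3.34% and 19.7%. Of the 19 in the middle, 2 were lower and 0 were higher (1 at an unadjusted p-value below 0.05, 0 by DESeq2), beside 14.4% and 4.97%. Across the 58 motor genes length and log2 fold change had a Spearman's rho of -0.65, and across all tested genes it was -0.48, in both cases over genes that share the same 6 libraries.

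Measured from the Ctrl mean, the split was present in all 3 Sox2 cKO libraries and in Ctrl library 2. That mean comes from the same 3 Ctrl libraries, so the opposite sign in Ctrl libraries 4 and 6 largely follows from library 2. On the log2(CPM + 0.5) scale, the median deviation of the long motor genes from the Ctrl mean was -0.13, 0.07 and 0.08 in Ctrl, and -0.38, -0.31 and -0.35 in Sox2 cKO. The short motor genes had 0.11, -0.06 and -0.00 in Ctrl and 0.26, 0.18 and 0.23 in Sox2 cKO. Ctrl and Sox2 cKO did not overlap in either class, and Ctrl library 2 lay nearest to the Sox2 cKO libraries in both. The long genes minus the short genes gave -0.24, 0.13 and 0.08 in Ctrl and -0.64, -0.50 and -0.59 in Sox2 cKO. The same difference over all tested genes was -0.13, 0.07 and 0.05 in Ctrl and -0.39, -0.26 and -0.26 in Sox2 cKO. Ctrl library 2 thus leaned the same way as the Sox2 cKO libraries in motor genes and in all genes.

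**Figure D2:**
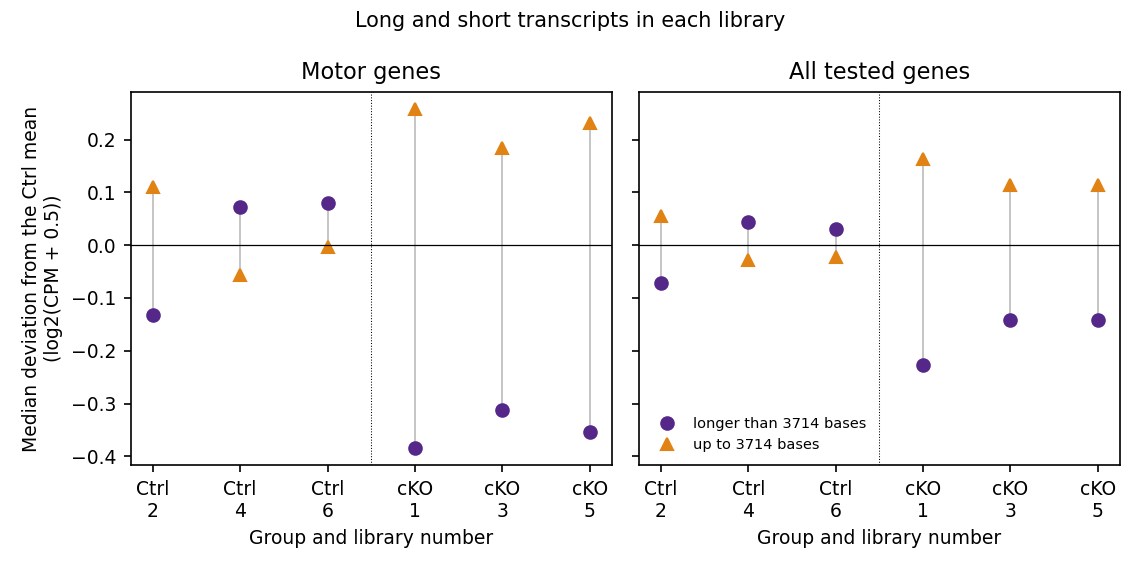
Median deviation from the Ctrl mean (log2(CPM + 0.5), vertical axis) of transcripts longer than 3714 bases (circles) and up to 3714 bases (triangles) in each of the 6 libraries, for motor genes on the left and all tested genes on the right. In the Sox2 cKO libraries the long motor genes sit between -0.38 and -0.31 and the short ones between 0.18 and 0.26, and the same gap is narrower over all genes.

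Because length and direction went together in all genes, the counts were also tested after the trend with length had been removed from each library with a lowess curve. This left 9 motor genes lower and 4 higher, beside 7.03% and 6.02% of all tested genes. The 9 were Dync1h1, Dctn1, Dynll2, Klc3, Kif3a, Kif3c, Kif13a, Kif13b and Kif26b, and the 4 were Dctn2, Dctn3, Kifc2 and Kif5b. Of these 13, Kif5b was called only after the correction. Among long motor genes 6 were lower and 1 was higher, beside 7.58% and 6.21% of all long genes, and among short ones 3 were lower and 3 were higher, beside 6.7% and 5.92%. The medians became -0.12 for the long and 0.067 for the short motor genes, and Spearman's rho was -0.36 across motor genes and 0.019 across all tested genes. The correction also removes any change in the animals that follows length, and what the trend comes from was not tested.

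**Figure D3:**
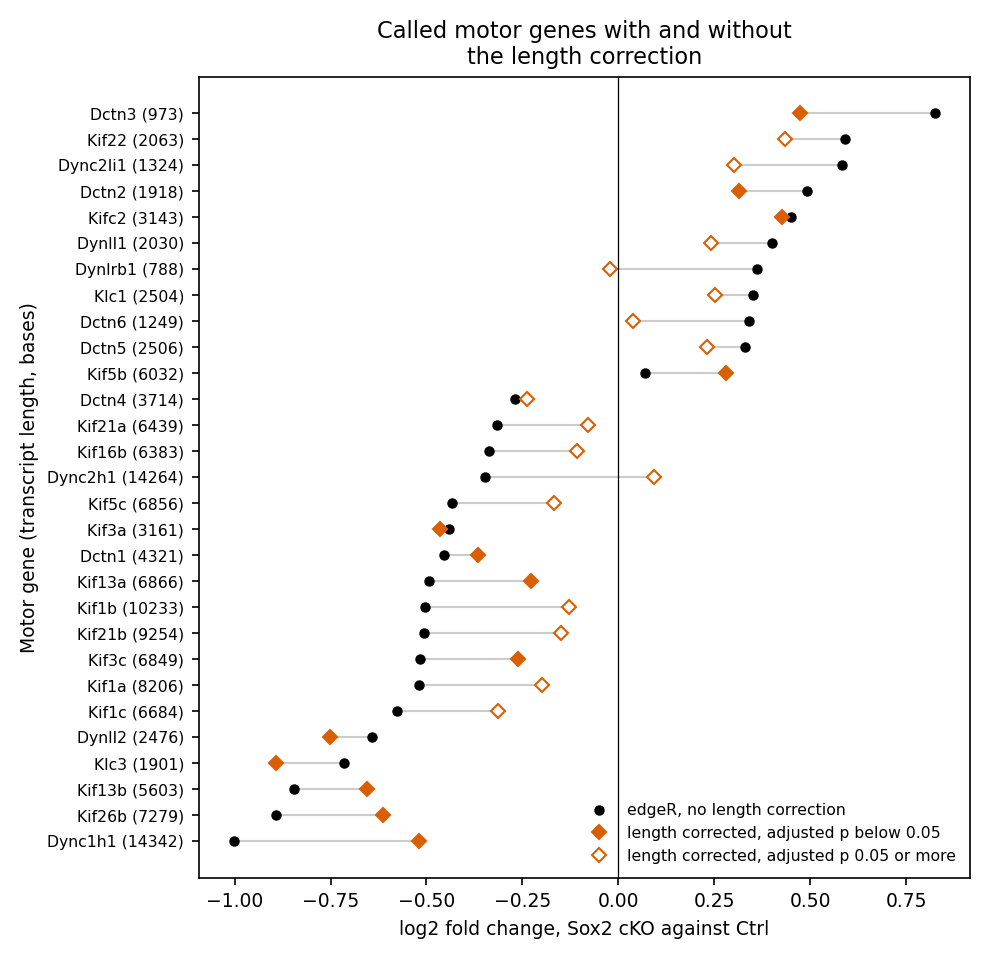
Log2 fold change in Sox2 cKO against Ctrl (horizontal axis) of the 29 motor genes called with or without the length correction, 1 gene per line with its length in bases, as a black circle before the correction and an orange diamond after it, filled where the adjusted p is below 0.05. Dynlrb1 and Dync2h1 cross 0, Dynll2, Klc3 and Kif3a move away from 0, and Kif13b, Kif26b and Dync1h1 stay below -0.50.

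Cytoplasmic dynein-1 is built on the heavy chain Dync1h1, the ATPase that moves along the microtubule. Dync1h1 (ENSMUSG00000018707, chromosome 12 from 110601452 to 110666945 in mm10) had 811, 1424 and 1308 CPM in Ctrl, and 532, 599 and 638 CPM in Sox2 cKO. Ctrl and Sox2 cKO did not overlap, and Ctrl library 2 lay well below the other Ctrl libraries. Its mean in Sox2 cKO was 49.9% of that in Ctrl, with a log2 fold change of -1.0 (SE 0.18, adjusted p = 0.0125), the largest fall among the motor genes in edgeR. Leaving out 1 library at a time moved this value between -1.21 and -0.85, and the length correction gave -0.52 (adjusted p = 0.0195). The other 4 dynein-1 chains were not called. The intermediate chains, which link the heavy chain to dynactin, had log2 fold changes of 0.14 for Dync1i1 (adjusted p = 0.284) and 0.05 for Dync1i2 (adjusted p = 0.676), and the light intermediate chains, which bind cargo adaptors, had 0.27 for Dync1li1 (adjusted p = 0.103) and -0.07 for Dync1li2 (adjusted p = 0.558). Chains of the same complex thus had different values. The FPKM of Dync1h1 was 1.86, 3.34 and 3.34 times that of Dync1i2 in Ctrl, and 1.26, 1.36 and 1.47 times in Sox2 cKO, without overlap. This and the other ratios between genes were chosen after the values were seen and were not tested.

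Dynactin links dynein to cargo and keeps it on its track. All 6 of its Dctn subunits were called, beside 24.6% of all tested genes in either direction. Its other subunits Actr1a, Actr1b, Actr10, Capza1, Capza2 and Capzb were not called by edgeR, with adjusted p from 0.123 to 0.371. Its largest subunit Dctn1, known as p150Glued, had 477, 594 and 602 CPM in Ctrl and 388, 400 and 434 CPM in Sox2 cKO. It was lower by 0.45 ± 0.10 on the log2 scale (SE, adjusted p = 0.0171), without overlap. Dctn3 (ENSMUSG00000028447, chromosome 4 from 41714798 to 41723170), a small subunit of the shoulder that joins Dctn1 to the filament, had 61.0, 43.8 and 45.5 CPM in Ctrl and 96.0, 87.5 and 82.6 CPM in Sox2 cKO. Every Sox2 cKO library was above every Ctrl library, and the log2 fold change was 0.82 (SE 0.12, adjusted p = 0.0121), the largest rise among the called motor genes. Dctn2, the dynamitin subunit of the same shoulder, had 179, 144 and 137 CPM in Ctrl and 237, 212 and 197 CPM in Sox2 cKO. Its log2 fold change was 0.49 (SE 0.11, adjusted p = 0.0176). Of the subunits at the pointed end of the filament, Dctn5 and Dctn6 were higher, with log2 fold changes of 0.33 (adjusted p = 0.0422) and 0.34 (adjusted p = 0.0362), and Dctn4 was lower, with -0.27 (adjusted p = 0.0393). After the length correction Dctn1, Dctn2 and Dctn3 were called, with log2 fold changes of -0.37, 0.31 and 0.47, and Dctn4, Dctn5 and Dctn6 were not. The ratio of Dctn1 to Dctn3 in FPKM was 1.76, 3.05 and 2.98 in Ctrl and 0.910, 1.03 and 1.18 in Sox2 cKO.

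The dynein light chains are small subunits at the base of the motor, and their genes moved in both directions. Dynll2 (ENSMUSG00000020483, chromosome 11 from 87979525 to 87987533) encodes an LC8 light chain that many other proteins also bind. It had 2482, 3138 and 3801 CPM in Ctrl, and 1871, 1886 and 2285 CPM in Sox2 cKO. No Sox2 cKO library reached the lowest Ctrl library, and the log2 fold change was -0.64 (SE 0.15, adjusted p = 0.0172). With 2476 bases Dynll2 is a short gene, and the length correction moved its log2 fold change to -0.75 (adjusted p = 0.0221). Dynll1, which encodes the other LC8 light chain, had 103, 79.7 and 90.2 CPM in Ctrl and 121, 116 and 123 CPM in Sox2 cKO. It was higher by a log2 fold change of 0.40 (SE 0.10, adjusted p = 0.0196), or 0.24 with the length correction (adjusted p = 0.0601). The 2 genes for LC8 thus had opposite directions in edgeR, and the FPKM of Dynll1 was 0.0506, 0.0310 and 0.0290 of that of Dynll2 in Ctrl and 0.0792, 0.0752 and 0.0654 in Sox2 cKO. Dynlrb1, a light chain of the roadblock family, had 146, 123 and 129 CPM in Ctrl and 161, 170 and 179 CPM in Sox2 cKO, with a log2 fold change of 0.36 (SE 0.09, adjusted p = 0.0211). At 788 bases it is among the shortest members, and its log2 fold change after the length correction was -0.021 (adjusted p = 0.877). Dynlt1a had 0.61 (adjusted p = 0.114) and was not called. It has near-identical copies in the mouse genome, so its counts are uncertain.

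Dynein-2 is the motor of return transport inside cilia. Its heavy chain Dync2h1 had 49.6, 56.1 and 49.7 CPM in Ctrl and 34.6, 46.3 and 41.0 CPM in Sox2 cKO, with a log2 fold change of -0.35 (SE 0.11, adjusted p = 0.0451). The CPM did not overlap, but the FPKM did. Its light intermediate chain Dync2li1 was higher, with 8.61, 5.94 and 7.10 CPM in Ctrl and 12, 9.96 and 10.5 CPM in Sox2 cKO and a log2 fold change of 0.58 (SE 0.16, adjusted p = 0.0269). With the length correction neither chain was called, at 0.094 for Dync2h1 (adjusted p = 0.547) and 0.30 for Dync2li1 (adjusted p = 0.141). Ciliated ependymal cells also express these genes, and their markers summed to 54.4 to 68.2 CPM in Ctrl and 49.4 to 50.7 CPM in Sox2 cKO, with 1 of 8 markers lower and none at 0. The part of these cells in the dynein-2 values was not tested.

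Kinesin-1, the classical motor of outward axonal transport, pairs Kif5 heavy chains with Klc light chains that bind cargo. Of its 3 heavy chains, Kif5c was lower, with 1053, 1323 and 1304 CPM in Ctrl and 854, 924 and 949 CPM in Sox2 cKO. All Sox2 cKO libraries were below all Ctrl libraries, and the log2 fold change was -0.43 (SE 0.10, adjusted p = 0.0193), or -0.17 with the length correction (adjusted p = 0.124). Kif5a, the heavy chain specific to neurons, had 1859, 1843 and 1585 CPM in Ctrl and 1734, 1916 and 1789 CPM in Sox2 cKO. Its groups overlapped, and it was not called at 0.04 (SE 0.09, adjusted p = 0.773). Kif5b, the heavy chain found in most tissues, had 607, 614 and 597 CPM in Ctrl and 593, 676 and 639 CPM in Sox2 cKO. It overlapped as well, with 0.07 (SE 0.08, adjusted p = 0.567), and became higher with the length correction, with 0.28 (adjusted p = 0.0318). The 3 heavy chain transcripts are from 6032 to 6856 bases long, and the part of length in their values was not tested. The ratio of Kif5c to Kif5a in FPKM was 0.521, 0.661 and 0.757 in Ctrl and 0.453, 0.444 and 0.488 in Sox2 cKO.

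Among the light chains, Klc1 was higher, with 786, 648 and 598 CPM in Ctrl and 910, 845 and 835 CPM in Sox2 cKO. Its log2 fold change was 0.35 (SE 0.11, adjusted p = 0.0411), or 0.25 with the length correction (adjusted p = 0.0766). Klc2 varied little, with 465, 461 and 455 CPM in Ctrl and 456, 456 and 460 CPM in Sox2 cKO (log2 fold change -0.01, SE 0.07, adjusted p = 0.938). Klc1 was 2.14, 1.78 and 1.66 times as abundant as Klc2 in the FPKM of Ctrl and 2.52, 2.35 and 2.29 times in Sox2 cKO. Klc3 was lower from a low level, with 2.20, 1.75 and 2.03 CPM in Ctrl and 1.27, 1.26 and 1.10 CPM in Sox2 cKO. Its log2 fold change was -0.71 (SE 0.23, adjusted p = 0.0493 from edgeR and 0.0954 from DESeq2). Klc3 had 29 to 49 counts per library. Leaving out any library lost its edgeR call, with a lowest adjusted p of 0.0919. Upper quartile scaling, no filter on low counts and limma lost it too. RLE scaling, a minimum of 10 counts in every library and the length correction kept it. Klc4 was not called (0.21, adjusted p = 0.123), although its groups did not overlap.

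Kinesin-3 motors carry synaptic vesicle precursors, mitochondria and endosomes. All 6 tested members were lower, and the seventh, Kif14, was not tested because of its low counts. They lie in the length range of the longest of the 3 groups of motor genes, where 41.3% of all tested genes were lower. Kif13b (ENSMUSG00000060012, chromosome 14 from 64647265 to 64809617) had 104, 146 and 147 CPM in Ctrl, and 61.0, 85.0 and 75.3 CPM in Sox2 cKO. The ranges of Ctrl and Sox2 cKO did not overlap, and the log2 fold change was -0.84 (SE 0.15, adjusted p = 0.0125), or -0.66 with the length correction (adjusted p = 0.0190). Its close relative Kif13a had -0.49 (SE 0.09, adjusted p = 0.0127), or -0.23 with the correction (adjusted p = 0.0467). Kif1a, which carries synaptic vesicle precursors in axons, had 1304, 1752 and 1724 CPM in Ctrl and 997, 1208 and 1127 CPM in Sox2 cKO, with a log2 fold change of -0.52 (SE 0.13, adjusted p = 0.0189). Kif1b had 1491, 1893 and 1890 CPM in Ctrl and 1093, 1335 and 1291 CPM in Sox2 cKO, with -0.50 (SE 0.12, adjusted p = 0.0177). In both, Ctrl library 2 was the lowest Ctrl library and lay above every Sox2 cKO library. Kif1c and Kif16b were lower too, with -0.58 (adjusted p = 0.0166) and -0.34 (adjusted p = 0.0418). All 7 kinesin-3 transcripts are at least 5603 bases long, and with the length correction only Kif13a and Kif13b of the 6 were called, with Kif1a at -0.20 (adjusted p = 0.104) and Kif1b at -0.13 (adjusted p = 0.203).

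Kinesin-2 serves outward transport in cilia and in axons, with Kif3a as the partner of either Kif3b or Kif3c. Kif3a was lower, with 155, 182 and 180 CPM in Ctrl and 114, 135 and 132 CPM in Sox2 cKO. The groups did not overlap, and the log2 fold change was -0.44 (SE 0.10, adjusted p = 0.0154), or -0.46 with the length correction (adjusted p = 0.0202). Kif3c, whose promoter holds the ACAAAG letters shown above, had 206, 238 and 241 CPM in Ctrl and 135, 174 and 170 CPM in Sox2 cKO. Its log2 fold change was -0.52 (SE 0.11, adjusted p = 0.0147), or -0.26 with the correction (adjusted p = 0.0467). Kif3b overlapped between the groups and was not called (-0.13, adjusted p = 0.418), and neither was Kif17 (0.08, adjusted p = 0.725). The ratio of Kif3c to Kif3b in FPKM was 2.64, 2.79 and 3.22 in Ctrl and 2.22, 2.20 and 2.16 in Sox2 cKO.

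In the kinesin-4 family and its relatives, 2 of 5 tested genes were lower and the other 3 were not called. These 5 genes are at least 4462 bases long, and 26.3% of all tested genes longer than 3714 bases were lower. Kif21b had a log2 fold change of -0.51 (SE 0.11, adjusted p = 0.0139) and Kif21a had -0.32 (SE 0.09, adjusted p = 0.0317), and neither was called with the length correction. Kif7, a component of Hedgehog signalling at the cilium, had -0.53 and did not overlap, but it was not called (adjusted p = 0.0769). Kif26b (ENSMUSG00000026494, chromosome 1 from 178529125 to 178939200), of a family without motor activity, had 17.4, 22.8 and 25.5 CPM in Ctrl and 9.36, 13.9 and 12 CPM in Sox2 cKO. All Ctrl libraries were above all Sox2 cKO libraries, and the log2 fold change was -0.89 (SE 0.17, adjusted p = 0.0127), or -0.61 with the correction (adjusted p = 0.0234). Its relative Kif26a was not called (-0.28, adjusted p = 0.3). Kifc2, a minus-end kinesin expressed in neurons, was higher, with 110, 95.6 and 93.6 CPM in Ctrl and 152, 139 and 118 CPM in Sox2 cKO. Its log2 fold change was 0.45 (SE 0.11, adjusted p = 0.0185), or 0.43 with the correction (adjusted p = 0.0256). Kif2a, a kinesin that shortens microtubules, had -0.20 and was not called (adjusted p = 0.155).

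Of the 11 mitotic kinesins, 9 were tested, and Kif22, which moves chromosomes, was called. Kif22 had 3.50, 2.62 and 3.57 CPM in Ctrl and 5.05, 5.01 and 4.5 CPM in Sox2 cKO, with a log2 fold change of 0.59 (SE 0.18, adjusted p = 0.0385). With the length correction Kif22 had 0.43 and was not called (adjusted p = 0.112). Kif23, which acts in the last step of cell division, had 15, 10 and 12 counts in Ctrl and 27, 29 and 27 counts in Sox2 cKO. It did not overlap and had a log2 fold change of 0.93, but it was not called (adjusted p = 0.0543). The other 7 were not called, and Kifc1 did not overlap in the lower direction (-0.49, adjusted p = 0.104). Proliferation markers summed to 43.6 to 52.4 CPM in Ctrl and 54.5 to 58.4 CPM in Sox2 cKO, and edgeR called 0 of the 6 tested (4 at an unadjusted p-value below 0.05, 0 by DESeq2). Of the 18 tested motor genes with a mean below 5 CPM, which include most mitotic kinesins, 2 were called, Kif22 and Klc3, and of all tested genes below that level 8.01% were called.

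Levels can be compared between genes per length, as FPKM. Mean Ctrl values ran from 0.0400 to 1220 FPKM over the 61 motor genes, with 33 genes at 10 FPKM or more and 15 below 1 FPKM. Dynll2 led by a wide margin with 1220 ± 225 FPKM (SD, n = 3) in Ctrl and 840 ± 81.3 FPKM in Sox2 cKO. In Ctrl it was followed by Kif5a and Klc1, with 270 and 262 FPKM, which overlapped, and then by Kif1a, Kif5c, Kif1b and Dynlrb1, with 187, 172, 166 and 162 FPKM, which also overlapped. In Sox2 cKO the order after Dynll2 was Klc1 with 357, Kif5a with 297 and Dynlrb1 with 223 FPKM, each above every library of the next. Klc2 with 149, Kif1a with 140, Kif5c with 137 and Kif1b with 125 FPKM came next, and each overlapped with the one after it. FPKM were scaled by total counts and CPM by TMM, and the 2 scales differ between the groups. Relative to CPM, FPKM were higher in every Sox2 cKO library than in any Ctrl library. Klc2 had means of 461 CPM in Ctrl and 458 CPM in Sox2 cKO, but 140 and 149 FPKM. Comparisons of the groups in FPKM, also those by limma, therefore lie higher in Sox2 cKO than those in CPM. Kif5b overlapped in CPM but not in FPKM.

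**Figure D4:**
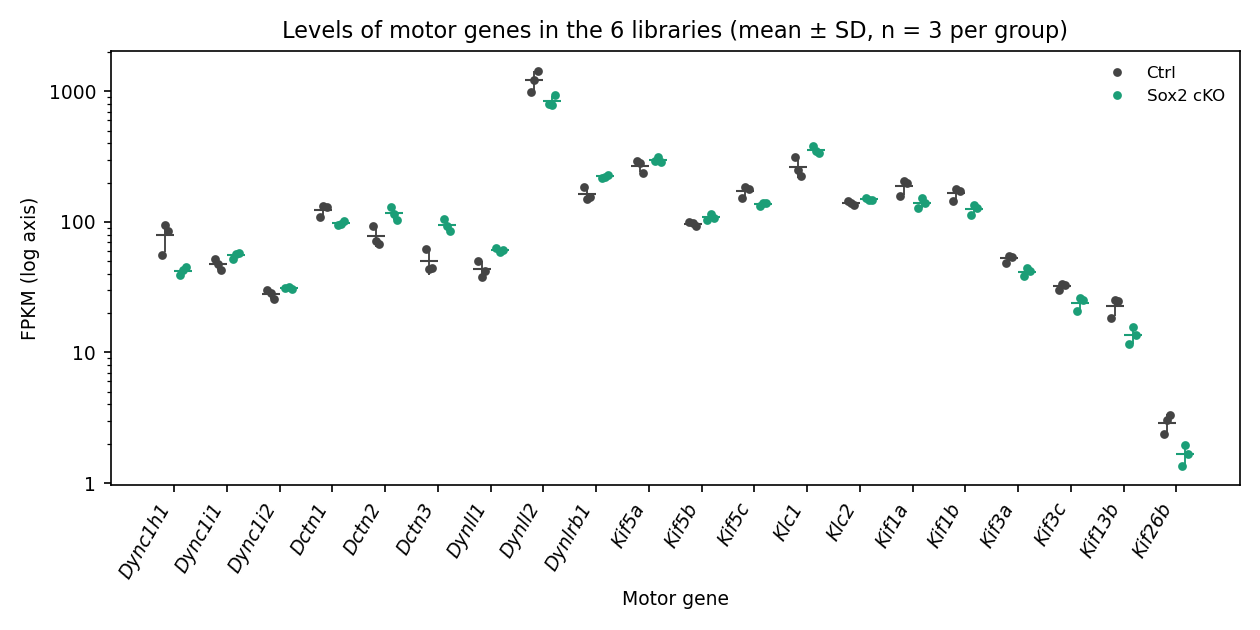
FPKM (log axis) of 20 motor genes in the 3 Ctrl and 3 Sox2 cKO libraries, with points for libraries and bars for the mean ± SD. Dynll2 is the most abundant gene in both groups, Dync1h1, Kif13b and Kif26b are lower in all Sox2 cKO libraries, Dctn2 and Dctn3 are higher in all of them, and Kif5a overlaps.

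Genes that work with the motors were described from lists chosen by function. Of 30 genes for adaptors, regulators and other dynactin subunits, 3 were lower and 1 was higher, where 12.4% and 12.2% of all tested genes were, with a median log2 fold change of -0.16 beside 0.02 over all tested genes. The 3 were Mapk8ip3, a kinesin adaptor (-0.41, SE 0.10, adjusted p = 0.0205), Rab11fip3, an adaptor of dynein on recycling endosomes (-0.39, SE 0.09, adjusted p = 0.0185), and Hook3, another dynein adaptor (-0.29, SE 0.09, adjusted p = 0.0366). Hook2, of the same family, had 6.42, 4.53 and 4.25 CPM in Ctrl and 9.05, 8.02 and 6.31 CPM in Sox2 cKO, with a log2 fold change of 0.62 (adjusted p = 0.0458). Its groups overlapped only between Ctrl library 2 and Sox2 cKO library 5. Without Ctrl library 2, edgeR called 11 of these genes lower and 5 higher, where 36.9% of all tested genes were called in either direction. With the length correction all 4 calls were lost, with log2 fold changes of 0.14 for Hook3 (adjusted p = 0.212), -0.12 for Mapk8ip3 (adjusted p = 0.21), -0.24 for Rab11fip3 (adjusted p = 0.0528) and 0.53 for Hook2 (adjusted p = 0.0791). Capzb and Ndel1 were then lower and Bicd2 was higher, beside 7.03% and 6.02% of all tested genes.

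Of 17 tubulins and microtubule-associated proteins, which form and stabilise the tracks, 6 were lower and 1 was higher, with a median log2 fold change of -0.07, where 12.4% and 12.2% of all tested genes were lower and higher. The 6 are all longer than 3714 bases, a range in which 26.3% of all tested genes were lower. Map1b, a large microtubule-associated protein of growing neurites, had 2238, 4132 and 3725 CPM in Ctrl and 1250, 1666 and 1747 CPM in Sox2 cKO. The groups did not overlap, and Ctrl library 2 again lay nearest to Sox2 cKO, as in Dync1h1. The log2 fold change of Map1b was -1.11 (SE 0.21, adjusted p = 0.0127). Map1a had -0.76 (adjusted p = 0.0132), Map6 had -0.49 (adjusted p = 0.0145), Mapt had -0.38 (adjusted p = 0.0189), Map2 had -0.35 (adjusted p = 0.0319) and Map4 had -0.31 (adjusted p = 0.0362). Tubb2a, a tubulin of neurons, was higher, with 0.37 (adjusted p = 0.0255). With the length correction 6 of the 17 were lower, now Map1a, Map1b, Map6, Tuba1a, Tubb2b and Tubb4a, beside 7.03% of all tested genes, and 0 were higher (0 at an unadjusted p-value below 0.05).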

How the data were processed

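The authors aligned single-end reads of poly(A) RNA to mm10 with STAR 2.5 and counted reads per gene with HTSeq 0.6.1, per the submitters' processing notes. They deposited raw counts per gene and FPKM values made from those counts. The strand setting and the annotation release are not given in the sources used here. Of 35275 identifiers, 34490 matched GENCODE M21, which gave names, types and positions. Lengths were recovered from the deposited counts and FPKM.

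The test of the counts was that of edgeR 4.0.16 in R 4.3.3 (filterByExpr, TMM, quasi-likelihood test, Benjamini-Hochberg adjustment over 16137 genes), 3 libraries against 3, without covariates. The biological coefficient of variation was 0.119. The labels do not say whether litters or batches were shared, and p-values measure the spread between these libraries. DESeq2 1.42.0, limma 3.58.1 on log2(FPKM + pseudocount), other scalings and filters, a lowess length correction (span 0.3) and leaving out each library were alternatives, of which leaving out libraries in DESeq2 was chosen after seeing the data. All other fits were checked on simulated data. Called means an adjusted p below 0.05.

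Genes named are the 8 largest rises and 8 largest falls among called, non-overlapping members with a mean of at least 1 CPM, a list of 22 transport genes, and Sox2. Other genes were named after their values were seen. Members and lists were chosen with earlier results of these data known. SEs were taken from fold changes and test statistics.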

Additional observations from a re-analysis of the deposited data

How the results depend on the processing

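No paired analysis was possible because the columns carry no replicate numbers. Directions of the 28 called motor genes did not turn under any setting except the length correction, where Dynlrb1 became -0.021 and Dync2h1 became 0.094. This correction left 9 lower and 4 higher motor genes (long 6 lower and 1 higher, short 3 higher), medians of -0.12 for long and 0.067 for short genes, and 0 tubulins or microtubule-associated genes higher. Short motor genes called lower were 2 with upper quartile scaling and with limma on log2(FPKM + 1) and log2(FPKM + 0.1). With limma, adaptors called higher were 3 and 2, beside 18.1% and 17.7% of all genes. The median of short motor genes reached 0.30 with the pseudocount of 0.1, and the median of all genes was 0.11 there. DESeq2 called 6 adaptors lower, beside 15.0% of all genes. The longest and shortest of 3 length groups had medians of -0.43 and 0.34. Leaving out 1 library, in edgeR and DESeq2 together, gave 0 to 19 motor genes lower and 0 to 12 higher, 0 to 15 long genes lower, 0 to 4 short genes lower and 0 to 12 short genes higher. Adaptors ranged from 0 to 14 lower and 0 to 5 higher, and tubulins with microtubule-associated genes from 0 to 7 lower and 0 to 1 higher. Over the same fits 0.0485% to 36.9% of all genes were called in either direction. The medians stayed between -0.41 and -0.35 for long and between 0.17 and 0.25 for short motor genes.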
